A study of Homo sapiens with 7 samples.

Results

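The 9 genes described here are the serpins SERPINB1, SERPINB2, SERPINB3, SERPINB4, SERPINB5, SERPINB7, SERPINB8, SERPINB13 and SERPINE2, chosen by name as serpins of keratinocytes and read as 1 entry each from an expression table of 16686 gene symbols. RNA-seq was performed on N/TERT2G cells, a line of human keratinocytes immortalized with telomerase, 48 h after transfection with siRNA. The 4 siYT libraries (A to D) are of cells given siRNA pools against YAP1 and against WWTR1, the gene for TAZ, and the 3 siCON libraries (A to C) of cells given a non-targeting siRNA, each at 8 pmol per cm2. YAP1 and TAZ are co-activators of the Hippo pathway that reach DNA through TEAD factors, and the comparison asks which transcripts changed when both were depleted. The libraries hold no knockdown of either alone, so dependence on both cannot be told apart from dependence on either. All libraries came from a single cell line in culture, and the labels name no further treatment, so they describe mRNA of that line and hold no measurement of protein or of protease activity. Values are a signal scaled with TMM, the trimmed mean of M values, and lie close to CPM (reads of a gene over a library's total, rescaled), over approximately 20700000 to 23900000 reads per library. In these bulk samples, fewer cells that express a gene and less RNA per cell cannot be told apart.

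Serpins are a family of protease inhibitors that work by suicide: the target protease cleaves an exposed reactive loop, the serpin refolds, and the enzyme is left covalently trapped and distorted. Clade B serpins mostly lack a classical signal peptide and act inside cells, where they guard against proteases that leak from lysosomes or granules, although several are also released. Stratified epithelia express many of them, from genes that sit side by side in a cluster on chromosome 18 and a smaller one on chromosome 6, and inherited loss of some causes disorders of cornification.

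Most of the keratinocyte serpins fell when YAP1 and TAZ were depleted. Of the 9 genes, all of which passed the filter on low values, 7 were called lower in siYT, meaning an adjusted p under 0.05 with a change of 1.5-fold or more, 0 were called higher and 2 were not called. Over the 13072 genes tested, 13.2% were lower and 14.1% higher by the same rule. At an unadjusted p under 0.05 and any fold, 1 member (SERPINB5) was higher and 8 were lower, and no tool other than limma was run on these normalized values. The median log2 fold change was -1.16 over the 9 serpins and 0.0033 over all genes tested. Each of the 9 had an adjusted p under 0.05 at any fold, as did 69.6% of all genes tested, and in each the siYT and siCON libraries did not overlap, as in 68.7% of all genes tested. The size of the difference varied widely: SERPINB2 was 16.8-fold lower, SERPINB7, SERPINB3 and SERPINB4 between 2.96-fold and 3.25-fold lower, SERPINB8 and SERPINB1 2.23-fold and 1.88-fold lower, SERPINB13 and SERPINE2 lay near the fold threshold, and SERPINB5 was 1.33-fold higher.

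**Figure D1:**
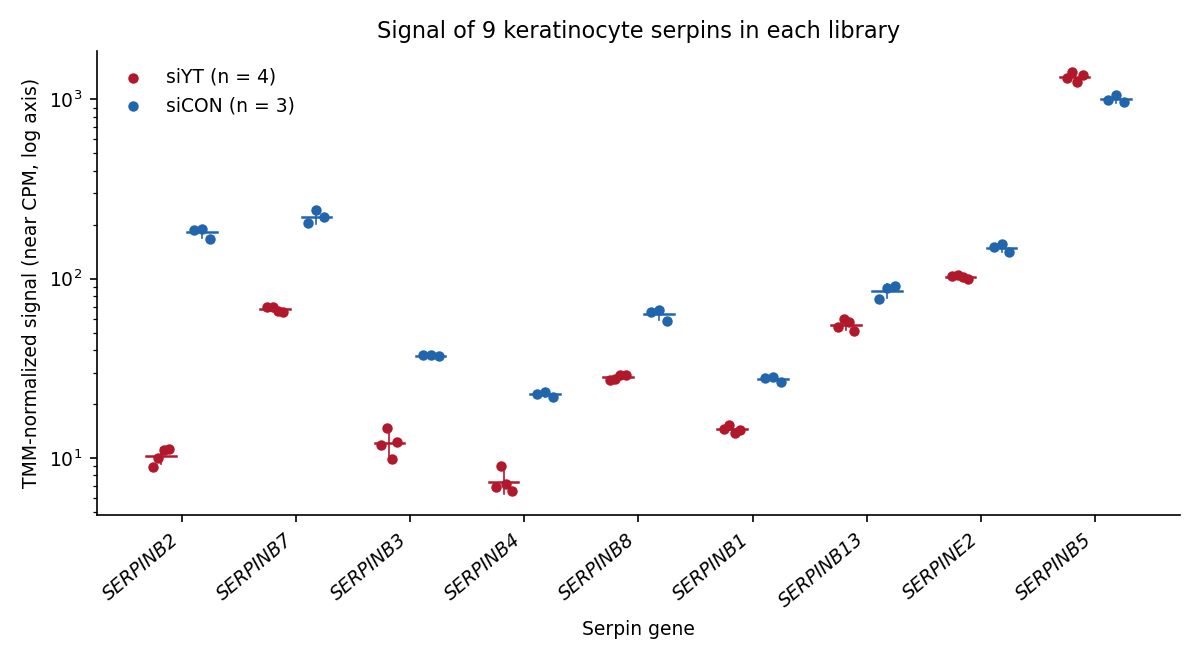
TMM-normalized signal (log axis) of each of the 9 serpins in the 4 siYT libraries (red) and the 3 siCON libraries (blue), with points for libraries, horizontal lines for means and vertical lines for ± 1 SD. From SERPINB2 on the left to SERPINE2 every siYT point lies below every siCON point, and for SERPINB5 on the right, at 1242 to 1424 in siYT and 969.7 to 1062 in siCON, the order is turned.

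The knockdown and the cell type were checked first. YAP1 was 3.55-fold lower in siYT (68.5 ± 5.38 in siYT, n = 4, against 244 ± 13.3 in siCON, n = 3, SD) and WWTR1 6.04-fold lower (5.60 ± 0.66 in siYT against 36.2 ± 1.60 in siCON). All 10 keratinocyte markers were in the table, with a summed signal of 56348 to 59838 in siYT and 58318 to 61152 in siCON. That sum is mostly keratins such as KRT5, and within the list 4 of 10 were called higher, DSG3 (log2 fold change 0.78), ITGA6 (0.63), TP63 (0.61) and COL17A1 (0.60), and 1 lower, ITGB4 (-0.84). The calls of ITGA6, TP63 and COL17A1 were lost without siCON A (0.57, 0.58 and 0.57). Of 7 melanocyte markers 2 were in the table, at a summed 1.98 to 2.86 in siYT and 2.69 to 3.23 in siCON. Of 8 fibroblast markers 6 were present, at a summed 187 to 194 in siYT and 228 to 256 in siCON, mostly from COL1A1 (100.4 ± 5.43 in siYT and 97.8 ± 10.7 in siCON) and DCN (86.5 ± 4.43 in siYT and 139 ± 4.05 in siCON). Of the 5 tested, DCN (-0.68) and COL3A1 (-1.60, with 0.33 ± 0.06 in siYT and 2.03 ± 0.09 in siCON) were called lower and COL1A2 (0.69, with 1.97 ± 0.29 in siYT and 1.02 ± 0.07 in siCON) higher. Of 8 leukocyte markers 3 were present, at 52.1 to 62.8 in siYT and 48.3 to 54.7 in siCON, mostly CD68, which was not called, and PTPRC was not among them. ITGAM was called higher (1.81, with 3.13 ± 0.67 in siYT and 0.53 ± 0.03 in siCON). The only endothelial marker of 5 that was present, VWF, lay under 1 in every library. All libraries came from a single keratinocyte line. The source of these marker signals, and any part of other cells in the serpin values, was not tested.

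SERPINB2, also called plasminogen activator inhibitor 2, blocks urokinase and tissue plasminogen activator when secreted and is held mostly inside keratinocytes, where it enters the cornified envelope. It had the largest change of the 9. Its signal was 8.92, 10.04, 11.1 and 11.2 in siYT A to D, against 187, 190.1 and 167 in siCON A to C. The siYT libraries sat in a narrow band far under the siCON ones, and even the lowest siCON library was 14.9 times the highest siYT library. The log2 fold change was -4.07 ± 0.08 (SE, limma adjusted p = 3.78e-15), a 16.8-fold lower level with a 95% interval of 14.99 to 18.9, and it was the third lowest of all 13072 genes tested. SERPINB2 spans chr18:61538926-61571124 on the plus strand of hg19. Its last 6717 bases overlap the entry of SERPINB10 on the same strand, so that reads from the shared stretch could belong to either. A read-through gene that GENCODE annotates on the same strand also covers 1460 of the 1906 bases of the canonical SERPINB2 transcript. SERPINB10 itself was low, at 0.21, 0.16, 0.12 and 0.29 in siYT and 1.22, 0.92 and 0.79 in siCON, and fell under the filter on low values.

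The promoter of SERPINB2 is shown because no other member changed as much. It is the 250 bases before the RefSeq start (chr18:61554689-61554938, GRCh37, plus strand). That start lies inside the span given above for the gene, which begins at 61538926. The bases before the beginning of that span were not searched. In all promoters shown, capitals mark 3 short motifs: GGAATG or its reverse complement CATTCC, the core bound by TEAD factors, TGANTCA, the palindromic site of the AP-1 factors that often sit beside TEAD at keratinocyte enhancers, and TATAAA, the TATA box, searched only on the strand of the gene. The SERPINB2 promoter held TGAATCA 102 to 96 bases before the start and TATAAA 30 to 25 bases before it, the usual place of a TATA box, and no GGAATG.
SERPINB2: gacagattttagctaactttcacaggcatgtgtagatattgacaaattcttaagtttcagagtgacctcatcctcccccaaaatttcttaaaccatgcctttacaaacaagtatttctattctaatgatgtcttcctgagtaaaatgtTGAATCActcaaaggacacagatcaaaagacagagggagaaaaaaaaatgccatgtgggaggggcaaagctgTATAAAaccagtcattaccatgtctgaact

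These motifs are common. Over the 250 bases before 35116 human gene starts, GGAATG on either strand was in 11.9% of promoters, TGANTCA in 6.57% and TATAAA in 6.80%. Of the 9 serpins, 2 had GGAATG (SERPINB3 and SERPINB4), 5 had TGANTCA in at least 1 promoter (SERPINB2, SERPINB5, SERPINB7, SERPINB8 and SERPINB13) and 3 had TATAAA (SERPINB2, SERPINB7 and SERPINB8). In SERPINB2 and SERPINB5 the only TGANTCA match was the looser TGAATCA. SERPINB7 has 3 RefSeq starts and SERPINE2 has 2, so some members had more than 1 chance to hold a match. A match shows letters in the window and not a bound factor.

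The genes whose profile over the 7 libraries was most like that of SERPINB2, by the root mean square difference of centred log2 values, were IL24, SLC7A7 and THBS1. IL24, a cytokine of the interleukin 10 family that acts on keratinocytes, differed from it by 0.159 on the log2 scale and was at 0.29, 0.39, 0.74 and 0.40 in siYT, against 14.8, 14.3 and 15.7 in siCON. SLC7A7, a subunit of a transporter of cationic amino acids, differed by 0.178 and averaged 0.94 ± 0.10 in siYT and 19.6 ± 0.65 in siCON. THBS1, a secreted matrix glycoprotein, differed by 0.264 and averaged 96.1 ± 34.4 in siYT and 1494 ± 105 in siCON. Each of the 3 has the difference between the groups in common with SERPINB2, and the measure covers 7 libraries of 2 groups only.

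SERPINB7, or megsin, is a clade B serpin of the upper epidermis whose inherited loss causes Nagashima-type palmoplantar keratosis. It had the second largest change. Its signal was 69.4, 69.8, 65.9 and 65.1 in siYT, against 203, 241 and 219.6 in siCON. The siYT libraries hardly differed among themselves, with a coefficient of variation of 3.53%, and the lowest siCON library was 2.92 times the highest of them. The change was 3.25-fold, with a 95% interval of 2.99 to 3.55 (log2 fold change -1.70 ± 0.06 SE, limma adjusted p = 1.81e-12). The gene lies at chr18:61420169-61472604 on the plus strand, next to SERPINB2. Of its 3 promoters, 2 held the AP-1 letters at 2 places each, TGATTCA and TGAGTCA. In 1 of these TATAAA lay 127 to 122 bases before the start, farther upstream than a TATA box usually lies.

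SERPINB3 and SERPINB4 encode the squamous cell carcinoma antigens 1 and 2, close copies that take different targets: SERPINB3 inhibits the cysteine proteases cathepsin L, K and S, and SERPINB4 inhibits the serine proteases cathepsin G and chymase. SERPINB3 was at 11.9, 14.8, 9.95 and 12.2 in siYT, against 37.4, 37.5 and 36.9 in siCON. SERPINB4 was at 6.92, 8.98, 7.13 and 6.52 in siYT, against 22.8, 23.4 and 21.9 in siCON. For both genes siYT B was the highest siYT library and still far under every siCON library, and the siYT libraries spread more (coefficients of variation of 16.3% and 14.8%) than those of the other members. SERPINB3 was 2.998-fold lower (log2 fold change -1.58 ± 0.10 SE, limma adjusted p = 1.28e-09) and SERPINB4 2.96-fold lower (-1.56 ± 0.10 SE, limma adjusted p = 1.36e-09). The 95% intervals of the 2 folds, 2.59 to 3.47 and 2.56 to 3.42, cover nearly the same range.

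The ratio of SERPINB3 to SERPINB4 signal was 1.72, 1.65, 1.40 and 1.88 in siYT, against 1.64, 1.60 and 1.68 in siCON, and the siCON values lay inside the siYT range. The pair cannot be fully separated by short reads. Their canonical transcripts, each of 1707 bases, were identical at 95.7% of aligned bases, and 24.9% of the 50-base windows of SERPINB3 occur unchanged in SERPINB4, whereas no other pair of the 9 shared a single such window. The study's reporting summary names Partek E/M, an expectation-maximization method that divides shared reads between genes, so the values of each are less certain than those of the other members, and the likeness of their changes is not independent evidence. The exons of SERPINB3 also lie within the GENCODE span of SERPINB11 on the opposite strand, and the sources used here do not say whether counting used strand. SERPINB11 was not analysed here.

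The promoters of this pair are printed together because they are nearly the same and are the only ones of the 9 members with the TEAD core, as CATTCC 8 to 3 bases before the start. They differ at 3 of 250 bases (98.8% identity). SERPINB3 lies at chr18:61322431-61329197 and SERPINB4 at chr18:61304493-61311532, both on the minus strand, and the stretches shown are chr18:61329128-61329377 and chr18:61311491-61311740 (GRCh37, minus strand).
SERPINB3: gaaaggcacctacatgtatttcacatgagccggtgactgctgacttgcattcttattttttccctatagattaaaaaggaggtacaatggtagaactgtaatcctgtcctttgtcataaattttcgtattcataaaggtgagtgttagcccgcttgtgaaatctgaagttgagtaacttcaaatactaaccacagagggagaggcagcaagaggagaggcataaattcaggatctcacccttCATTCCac
SERPINB4: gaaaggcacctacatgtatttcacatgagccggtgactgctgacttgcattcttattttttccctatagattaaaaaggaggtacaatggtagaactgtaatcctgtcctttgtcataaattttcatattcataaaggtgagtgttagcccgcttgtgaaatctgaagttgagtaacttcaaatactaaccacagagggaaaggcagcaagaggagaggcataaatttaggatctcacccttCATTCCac

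SERPINB8, which inhibits the proprotein convertase furin and whose loss causes a peeling form of ichthyosis, was at 27.2, 27.7, 28.9 and 29.0 in siYT, against 65.2, 67.3 and 58.1 in siCON. The siYT libraries agreed closely and the lowest siCON library, C, was still 2.01 times the highest of them. The level was 2.23-fold lower, with a 95% interval of 2.03 to 2.44 (log2 fold change -1.16 ± 0.06 SE, limma adjusted p = 2.23e-10). SERPINB8 lies at chr18:61637159-61672278 on the plus strand, at the far end of the cluster, and shares 460 exonic bases with HMSD, a gene of the same strand at 0.20 in siYT and 0.38 in siCON on average. Its promoter (chr18:61637065-61637314, GRCh37, plus strand) is shown because, like those of SERPINB7, it carried the AP-1 letters at 2 places, TGAATCA 185 to 179 and TGAGTCA 28 to 22 bases before the start, with TATAAA between them, farther upstream than a TATA box usually lies.
SERPINB8: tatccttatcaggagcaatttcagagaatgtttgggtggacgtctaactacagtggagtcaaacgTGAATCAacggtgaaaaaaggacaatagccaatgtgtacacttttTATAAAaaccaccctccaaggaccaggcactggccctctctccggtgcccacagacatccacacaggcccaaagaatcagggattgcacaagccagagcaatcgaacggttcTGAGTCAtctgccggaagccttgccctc

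SERPINB1 inhibits the neutrophil proteases elastase, cathepsin G and proteinase 3, and among the 9 it is the only gene on chromosome 6 (chr6:2832566-2842240, minus strand). Its signal was 14.5, 15.3, 13.8 and 14.4 in siYT, against 28.0, 28.4 and 26.6 in siCON. Both groups were tight and lay well apart, the closest libraries by a factor of 1.74. The change was 1.88-fold, with a 95% interval of 1.70 to 2.08 (log2 fold change -0.91 ± 0.07 SE, limma adjusted p = 8.40e-09). None of the 3 motifs was in its promoter.

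SERPINB13, known as hurpin or headpin, is an inhibitor of cathepsins L and K that was first described as a gene regulated in ultraviolet-treated keratinocytes. It was at 53.6, 59.6, 57.2 and 51.3 in siYT, against 77.1, 88.5 and 91.2 in siCON. The groups did not overlap, but siCON A came within a factor of 1.29 of siYT B. The level was 1.54-fold lower with a 95% interval of 1.39 to 1.70 (log2 fold change -0.62 ± 0.07 SE, limma adjusted p = 6.94e-07), so the interval includes the fold threshold of 1.5. The call was lost in 4 of 19 alternatives, among them those without siYT D (log2 fold change -0.58), without siCON C (-0.57) and with libraries rescaled to equal totals (-0.51), while the direction stayed the same and the adjusted p was at most 1.29e-04 in all of them. The gene lies at chr18:61254223-61271873 on the plus strand and had TGACTCA 87 to 81 bases before its start.

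SERPINE2, or protease nexin 1, is the only one of the 9 outside clade B. It is secreted and inhibits thrombin, urokinase and tissue plasminogen activator at the cell surface. Its signal was 104, 105, 102 and 99.8 in siYT, against 149, 156 and 141 in siCON. No siYT library reached any siCON library, and the siYT libraries varied least of all 9 genes, with a coefficient of variation of 2.35%. The difference was 1.44-fold with a 95% interval of 1.34 to 1.55 (log2 fold change -0.53 ± 0.05 SE, limma adjusted p = 1.33e-07) and was not called, since it stayed under the fold threshold of 1.5 here and in all 19 alternatives. SERPINE2 lies at chr2:224839829-224904036 on the minus strand, and neither of its promoters held a motif.

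SERPINB5, or maspin, a serpin that does not inhibit proteases and is known as an epithelial tumour suppressor, was the only member with a higher level. Its signal was 1308, 1424, 1242 and 1366 in siYT, against 988, 1062 and 969.7 in siCON. The groups did not overlap, and siYT C exceeded siCON B by a factor of 1.17. The level was 1.33-fold higher with a 95% interval of 1.21 to 1.45 (log2 fold change 0.41 ± 0.06 SE, limma adjusted p = 2.94e-05), which was not called because the estimate lay under the fold threshold. The gene lies at chr18:61143994-61172318 on the plus strand. Its promoter (chr18:61143941-61144190, GRCh37) is shown because it carried the same AP-1 letters as that of SERPINB2, TGAATCA, 146 to 140 bases before the start, in a gene with the opposite direction of change.
SERPINB5: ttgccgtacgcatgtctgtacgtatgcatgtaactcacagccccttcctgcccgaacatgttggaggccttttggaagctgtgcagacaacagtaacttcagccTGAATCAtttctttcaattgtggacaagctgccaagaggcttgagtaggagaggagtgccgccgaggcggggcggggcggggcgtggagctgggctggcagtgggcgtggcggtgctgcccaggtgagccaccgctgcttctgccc

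**Figure D2:**
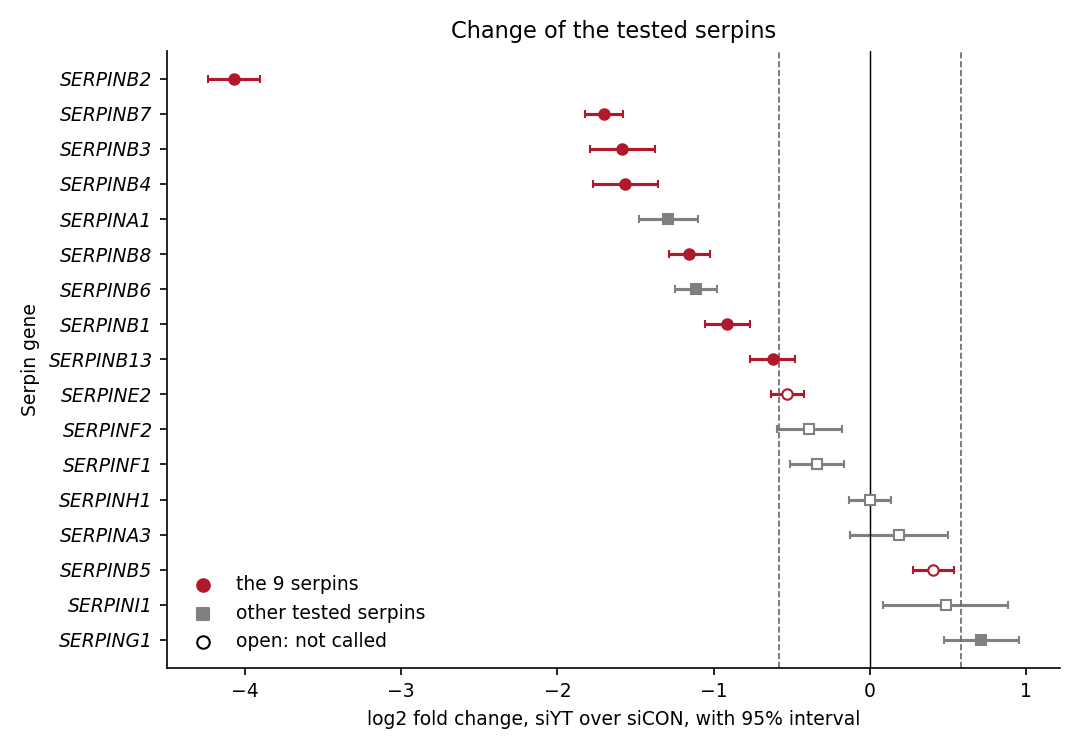
Log2 fold change of siYT over siCON with its 95% interval for 17 serpin genes tested, with circles for the 9 keratinocyte serpins, squares for other serpins, open symbols for genes that were not called and dashed lines at the fold threshold of 1.5. SERPINB2 stands alone at -4.07, and SERPINB13 (-0.62) and SERPINE2 (-0.53) lie on either side of the lower threshold.

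Levels can be compared between genes only per length, so each signal was divided by the length of the canonical GENCODE transcript. SERPINB5 was first in both groups, at 516 ± 30.1 per kb in siYT and 389 ± 18.9 per kb in siCON. In siYT it was followed by SERPINE2 (46.2 ± 1.09), SERPINB7 (30.8 ± 1.09) and SERPINB13 (17.7 ± 1.19), each clear of the next. SERPINB8, SERPINB3, SERPINB1, SERPINB2 and SERPINB4 then lay between 8.50 and 4.33 per kb on average, and each of these overlapped its neighbour in the order. In siCON the order was SERPINB5, SERPINB7 (101 ± 8.57), SERPINB2 (95.002 ± 6.66), SERPINE2 (66.8 ± 3.26), SERPINB13 (27.3 ± 2.39), SERPINB3 (21.8 ± 0.19), SERPINB8 (19.14 ± 1.45), SERPINB4 (13.3 ± 0.43) and SERPINB1 (11.2 ± 0.38), and only SERPINB7 and SERPINB2 overlapped.

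The largest move in rank was that of SERPINB2, which ranked 8 of 9 in siYT and 3 of 9 in siCON. SERPINB5, higher while the others were lower, made up 79.4% to 81.2% of the summed per-kb signal of the 9 serpins in siYT libraries and 52.2% to 52.3% in siCON libraries. The other 8 together summed to 126 ± 4.15 per kb in siYT and 355 ± 17.3 per kb in siCON. With SERPINB5 included the sums lay closer, at 605 to 682 in siYT and 718 to 786 in siCON.

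**Figure D3:**
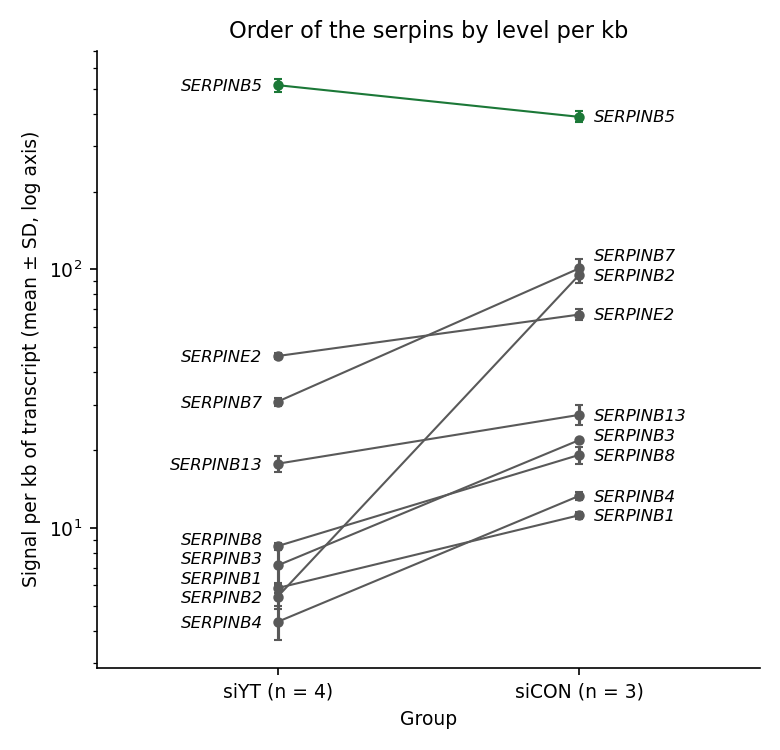
Mean signal per kb of canonical transcript (log axis, error bars ± 1 SD) of the 9 serpins in siYT (left, n = 4) and siCON (right, n = 3), with a line joining the means of each gene. SERPINB2 crosses 5 places, at 5.41 per kb in siYT and 95.002 per kb in siCON, and SERPINB5 (green) is the only gene higher in siYT.

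Other serpins were read for comparison. Of 25 further serpins listed, 11 were in the table and 8 passed the filter on low values. Among these 8, 2 were called lower and 1 higher, with a median log2 fold change of -0.17. By the same rule 13.2% of all genes tested were lower and 14.1% higher. SERPINB6, the only other clade B serpin tested and a neighbour of SERPINB1 on chromosome 6, was 2.16-fold lower (20.9 ± 1.08 in siYT against 45.7 ± 1.82 in siCON, log2 fold change -1.11, limma adjusted p = 4.08e-10). SERPINB9, the inhibitor of granzyme B, averaged under 1 in both groups and was not tested. SERPINA1, the elastase inhibitor alpha-1-antitrypsin, was 2.44-fold lower (34.4 ± 4.89 in siYT against 84.3 ± 3.86 in siCON, limma adjusted p = 3.99e-09). SERPING1, the inhibitor of complement C1, was 1.64-fold higher (15.7 ± 2.28 in siYT against 9.37 ± 1.19 in siCON, limma adjusted p = 4.02e-05).

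Of the 9 serpins, 7 lie in the cluster on chromosome 18, and 6 of them were called lower. Along the plus strand direction the log2 fold changes were 0.41 for SERPINB5, -0.62 for SERPINB13, -1.56 for SERPINB4, -1.58 for SERPINB3, -1.70 for SERPINB7, -4.07 for SERPINB2 and -1.16 for SERPINB8. The values were ordered downward from SERPINB5 to SERPINB2, although the 95% intervals of SERPINB4, SERPINB3 and SERPINB7 overlap. Of 5 neighbours of the cluster tested, 0 were called lower (0 also at an unadjusted p under 0.05) and 1, ZCCHC2, was called higher (38.7 ± 1.79 in siYT against 25.2 ± 0.87 in siCON, log2 fold change 0.61, and 0.58 with the call lost without siYT A or with a pseudocount of 2). VPS4B, an ATPase of membrane scission and the nearest listed neighbour of SERPINB5, averaged 109.6 ± 3.58 in siYT and 115 ± 4.97 in siCON, and KDSR, an enzyme of sphingolipid synthesis, averaged 81.6 ± 5.54 in siYT and 75.3 ± 1.82 in siCON. Neither was called. The median of the 5 was 0.11. By comparison 13.2% of all genes tested were called lower and 14.1% higher. All 5 neighbours lie on the SERPINB5 side of the cluster. No gene beyond SERPINB8 was among them, so they do not describe that side.

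Of the 7 neighbours of SERPINB1 and SERPINB6 tested on chromosome 6, 3 were called lower and 0 higher (0 also at an unadjusted p under 0.05), with a median of -0.47. Those called were NQO2, a quinone reductase (log2 fold change -0.78), TUBB2A, a beta-tubulin (-0.76), and GMDS, the first enzyme of GDP-fucose synthesis (-0.73). Against them SERPINB1 had -0.91 and SERPINB6 -1.11. With the trend of each library on transcript length removed, NQO2 (-0.46), TUBB2A (-0.56) and GMDS (-0.54) were no longer called, while SERPINB1 was (-0.88). By comparison 13.2% of all genes tested were called lower in the main fit.

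**Figure D4:**
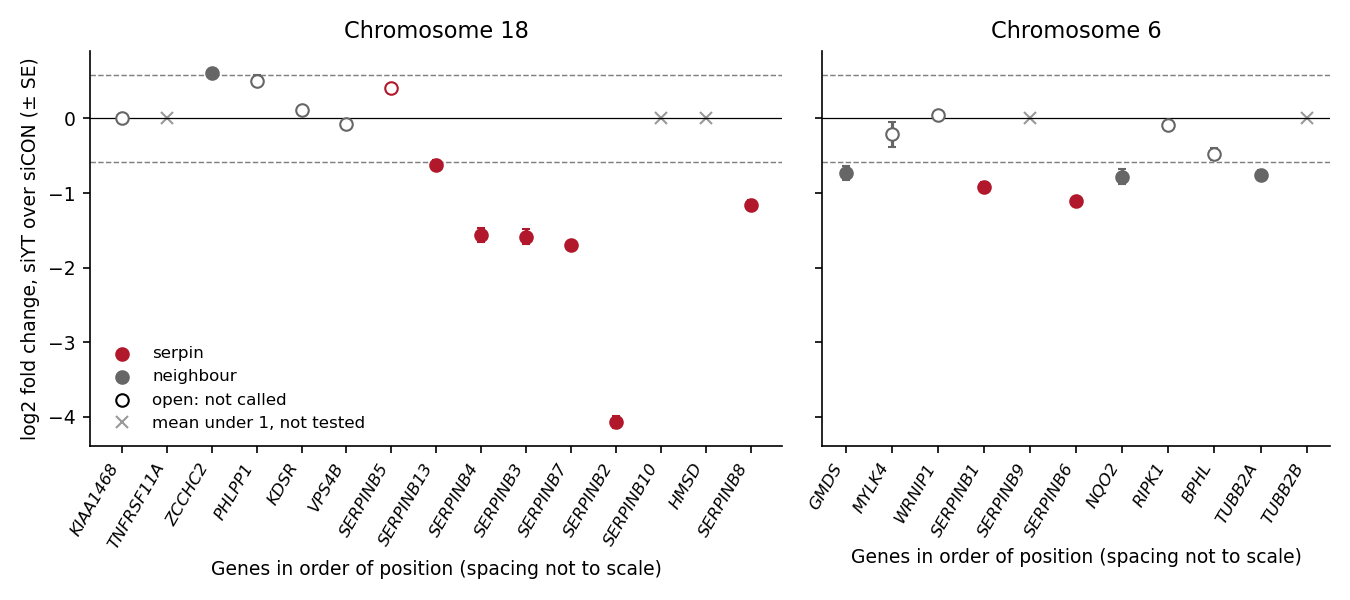
Log2 fold change of siYT over siCON (± SE) of genes in their order along chromosome 18 (left) and chromosome 6 (right), with serpins in red, neighbours in grey, open symbols for genes not called and crosses at 0 for genes with a mean signal under 1, which were not tested. On chromosome 18 the serpins run downward from 0.41 at SERPINB5 to -4.07 at SERPINB2. Their 5 tested neighbours, all on the SERPINB5 side of the cluster, lie between -0.08 and 0.61.

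Proteases and cofactors that these serpins meet, with other genes of the same families and pathways, were then counted from lists. Each list count can be set against all 13072 genes tested, of which 13.2% were called lower and 14.1% higher. In the plasminogen activator system, the target of SERPINB2 and SERPINE2, 6 of 8 genes tested were called lower and 1 higher, with a median of -0.79. PLAT, the tissue plasminogen activator, was lowest at -1.20, with 7.69 ± 1.27 in siYT and 18.2 ± 0.83 in siCON. ANXA2, the surface receptor for plasminogen, was at -0.93 (1239 ± 61.7 in siYT and 2367 ± 76.3 in siCON), and PLAUR, the urokinase receptor, at -0.87 (15.4 ± 0.51 in siYT and 28.6 ± 1.24 in siCON). LRP1, which clears protease and serpin complexes, was the member called higher (1.13, with 321 ± 33.2 in siYT and 146 ± 5.88 in siCON). The urokinase gene PLAU was at 549.9, 541, 545 and 556 in siYT, against 384, 386 and 404 in siCON. Its groups lay apart and it was 1.40-fold higher, which was not called.

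Among the cathepsins, the lysosomal proteases that several clade B serpins inhibit, 5 of 12 tested were called higher and 0 lower, with a median of 0.34. CTSF was at 2.16 (22.5 ± 1.68 in siYT and 4.66 ± 0.62 in siCON), CTSA at 1.11, CTSD at 0.97 and CTSV, a close relative of cathepsin L in epidermis, at 0.61, a call that was lost without siYT A (0.57), siCON A (0.54) or siCON B (0.57). CTSL itself, a target of SERPINB3 and SERPINB13, averaged 94.7 ± 6.18 in siYT and 98.0 ± 4.08 in siCON and was not called. Neither CTSK (-0.32) nor CTSS (0.31), the other cathepsins named above as targets of SERPINB3, was called. At an unadjusted p under 0.05, 4 of the 12 were lower, each under the fold threshold.

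The other proteases that serpins inhibit showed no common direction. Of 5 tested, HTRA1, a secreted serine protease, was called higher (419 ± 25.3 in siYT and 166 ± 6.91 in siCON, log2 fold change 1.34) and CASP4, an inflammatory caspase, lower (80.6 ± 3.17 in siYT and 133 ± 6.85 in siCON, -0.72), with a median of 0.13. FURIN, the target of SERPINB8, averaged 131 ± 8.43 in siYT and 93.6 ± 3.34 in siCON, 1.40-fold higher and not called. Of 4 epidermal serine proteases tested, ST14, which encodes matriptase, was called higher (298 ± 7.14 in siYT and 149 ± 10.4 in siCON, 0.996) and PRSS23 lower (67.2 ± 2.56 in siYT and 228 ± 10.04 in siCON, -1.75). Neither F2R nor F2RL1, receptors that such proteases cleave, was called (0.03 and 0.05, with 0 of these 2 at an unadjusted p under 0.05).

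Inhibitors of other families were counted last. Among the cystatins, which block cysteine cathepsins, 2 of 4 tested were called lower and 0 higher (0 also at an unadjusted p under 0.05). CSTA, cystatin A of the cornified envelope, averaged 189 ± 16.1 in siYT and 331 ± 20.2 in siCON (log2 fold change -0.81). CST6 averaged 1.08 ± 0.10 in siYT and 2.54 ± 0.43 in siCON (-0.93), a call that was lost with a pseudocount of 2 (-0.55). With the trend of each library on transcript length removed, neither CSTA (-0.39) nor CST6 (-0.45) was called. Among 7 other serine protease inhibitors of epidermis 2 were called lower and 0 higher, with 2 higher at an unadjusted p under 0.05 under the fold threshold. PI3, or elafin, an elastase inhibitor crosslinked into the cornified envelope, averaged 0.75 ± 0.16 in siYT and 15.3 ± 1.44 in siCON (-3.66), and SLPI, the secretory leukocyte protease inhibitor, averaged 6.24 ± 0.60 in siYT and 35.6 ± 3.41 in siCON (-2.42). The median of the 7 was 0.04.

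**Figure D5:**
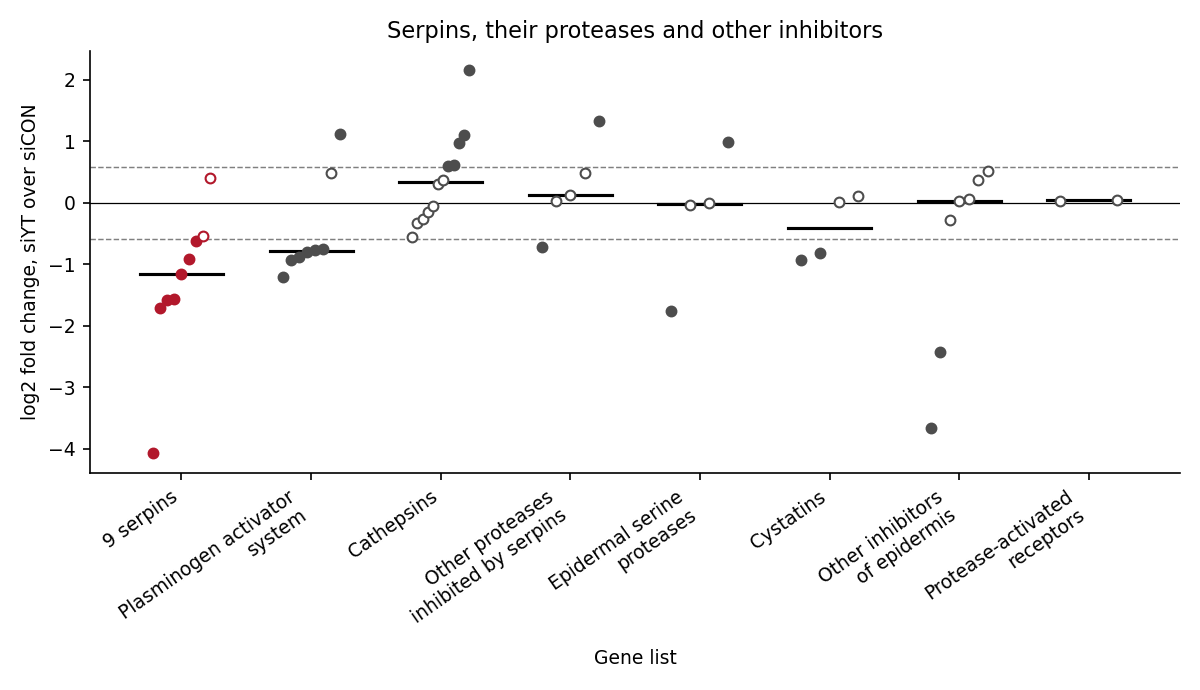
Log2 fold change of siYT over siCON for each tested gene of the 9 serpins (red) and of 7 lists of proteases, receptors and other inhibitors (grey), with filled points for genes that were called, bars for list medians and dashed lines at the fold threshold of 1.5. The serpin median is -1.16 and the cathepsin median 0.34, and PI3 is the only gene of the other lists below -3.

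With libraries rescaled to equal totals rather than scaled as deposited, the median log2 fold change of all genes was 0.11 and the calls over all genes were 1278 lower and 2343 higher, against 1732 lower and 1847 higher as deposited. SERPINB2 was then at -3.96, SERPINB7 at -1.59 and SERPINB5 at 0.52, and 6 of the 9 serpins were called lower. With the trend of each library on transcript length removed, 7 of the 9 serpins were still called lower, SERPINB2 at -3.94, whereas ZCCHC2, NQO2, TUBB2A, GMDS, CTSV, CASP4, CSTA, CST6, TP63, ITGA6, COL17A1 and COL1A2 moved under the fold threshold with their directions kept.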

How the data were processed

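Gene expression was measured by RNA-seq of polyadenylated RNA (TruSeq mRNA kit) in 7 libraries grouped by the siRNA in their labels. Per the submitters' processing notes, the authors' tools were Partek 8.0.19.0819, STAR 2.6.1 and cutadapt 1.18, with the hg19 build, while the methods name another trimmer and an earlier Partek release. The authors removed genes with few reads and scaled the rest by TMM, so the deposited values are a normalized signal near CPM, with library totals of 866098 to 955106. Whether counting was stranded is not stated in the sources used here. A second deposited table of the authors' own comparison (p-values, q-values, ratios, fold changes and group means) was not used. Replicates are distinguished only by letters and may be wells of a single plating, so p-values reflect only how these samples vary, which could be technical variation.

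Of 18478 entries, 1792 repeats of a symbol with equal values were dropped. Positions are 1-based on hg19. Genes with a mean of at least 1 (13072) were tested as log2(value + 0.5) in R 4.3.3 with limma 3.58.1, whose variances were moderated with a trend on the mean, without covariates. P-values were adjusted by Benjamini and Hochberg's method across these genes. Calls required an adjusted p under 0.05 with a change of 1.5-fold or more, as in the study. The added 0.5 makes the fold changes of low genes too small. The code was tested on simulated data. Promoters are the 250 bases before RefSeq starts (GRCh38.p14 table), placed on GRCh37 by exact match and searched with Python 3.11.15. Lengths are those of canonical GENCODE transcripts, and members were aligned with Biopython 1.88.

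The members and lists were chosen with earlier results of these data known. Genes named are the 9 serpins, YAP1, WWTR1, every called serpin, up to 4 called members of each list of proteases, inhibitors and neighbours with the largest change, or the 2 most abundant where fewer than 2 were called, and the 3 genes most like the called member with the largest change in each direction. PLAU, SERPINB9, SERPINB10, HMSD, FURIN, CTSL, CTSK and CTSS were added for their relation to members after their values were seen, as were the cell type markers named. List genes without a match in the table were not analysed here, and 1 listed serpin is not reported here. Alternatives were 2 other pseudocounts, 2 other filters, 2 other scalings, 2 other variance models, a replicate block, 2 choices of libraries, each library left out in turn and, added after seeing the data, removal of a trend on transcript length.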

Additional observations from a re-analysis of the deposited data

How the results depend on the processing

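Over 19 alternatives, the calls of 8 serpins and the direction of all 9 were kept. The exception in calls was SERPINB13, whose log2 fold change of -0.62 became -0.51 with libraries rescaled to equal totals and ranged from -0.69 to -0.57 with 1 library left out, the call being lost without siYT D (-0.58) or siCON C (-0.57). Leaving out 1 library gave -0.94 to -0.89 for SERPINB1, -4.13 to -4.01 for SERPINB2, -1.68 to -1.49 for SERPINB3, -1.66 to -1.51 for SERPINB4, 0.37 to 0.45 for SERPINB5, -1.76 to -1.64 for SERPINB7, -1.22 to -1.11 for SERPINB8 and -0.57 to -0.50 for SERPINE2. The number of serpins called lower was 6 to 7, and 0 were called higher in any alternative. The replicate letters A to C are shared by the groups, and the labels do not say whether they pair the samples. Deviations from the group means correlated at 0.156, 0.0254 and 0.183 for same-letter libraries. Both siYT A and siYT C correlated best with the siCON library of their own letter, whereas siYT B correlated best with siCON A (0.176). These values, from groups of 4 and 3 libraries, do not settle whether the samples are paired. With the letter as a replicate block, SERPINB13 was at -0.5849, just under the threshold and the same value as without siYT D, which has no partner letter and so adds nothing to the blocked estimate. With the block 6 serpins were called lower, and 1710 genes were lower and 1818 higher overall. Of the other genes named that were followed over the alternatives, 5 changed sign near 0. With equal totals VPS4B was at 0.037 and CTSL at 0.062. With the length trend removed KDSR was at -0.024, F2R at -0.044 and CTSL at 0.138, and F2R ranged from -0.011 (without siCON A) to 0.072 with 1 library left out. COL1A1 was at -0.124 with the length trend removed and ranged from -0.041 (without siCON B) to 0.118 with 1 library left out. With a pseudocount of 2 the calls of ZCCHC2 (0.58), CTSV (0.58), CST6 (-0.55) and COL1A2 (0.39) were lost, and with equal totals that of DCN (-0.57). CTSV (0.58) lost its call with siYT A and B averaged. With siCON B and C against siYT C and D alone, CTSV (0.46), GMDS (-0.57), TP63 (0.57), ITGA6 (0.58), COL17A1 (0.58) and COL1A2 (0.57) did. PLAU and FURIN passed the fold threshold with equal totals (0.60 and 0.59). The causes were not tested. The length trend could be removed for 11547 genes with a transcript length. Depth limits SERPINB9 and SERPINB10, which lay too low to test, and 7 libraries of 1 cell line limit every interval.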
